A study of Mus musculus with 6 samples.

Results

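The 10 genes that encode the class I and class II histone deacetylases of the mouse were examined in hippocampal RNA from mice in which the gene of the acetyltransferase CBP, Crebbp, was inactivated in forebrain excitatory neurons. They were chosen by name, namely Hdac1, Hdac2, Hdac3 and Hdac8 (class I), Hdac4, Hdac5, Hdac7 and Hdac9 (class IIa), and Hdac6 and Hdac10 (class IIb), and are 10 of the 55471 genes in the count table. All 10 passed the filter on low counts and were among the 17981 genes tested. The data comprised 6 RNA-seq libraries, 3 Control and 3 CBP-ifKO, from mice labelled C57BL/6 (C57BL/6J in the study's methods) aged 3 to 6 months. CBP-ifKO mice carried floxed Crebbp alleles and the Camk2a-creERT2 transgene, in which the Camk2a promoter drives a tamoxifen-dependent Cre recombinase in excitatory neurons, and all mice of both groups received 5 doses of tamoxifen. The treatment protocol describes the Control mice as littermates without creERT2, although the description of the Control samples also names Camk2a_creERT2. The study's methods describe several experiments on these mice, with pooled hippocampi or single animals and with females or males. The labels do not say which applies, so that a replicate may be a pool or a single animal. A truncated CBP without acetyltransferase activity is still made. Glia, interneurons and other cells outside the Camk2a lineage keep CBP in this model.

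Histone deacetylases remove acetyl groups from lysines and so oppose acetyltransferases such as CBP. Of the class I enzymes, Hdac1, Hdac2 and Hdac3 work in the nucleus as the catalytic core of corepressor complexes. Class IIa proteins have little deacetylase activity of their own, bind transcription factors such as MEF2, and move out of the nucleus when kinases activated by calcium phosphorylate them and 14-3-3 proteins bind. Class IIb enzymes act largely in the cytoplasm. In the brain, several deacetylases are known as regulators of memory and of transcription that depends on activity.

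The targeted gene was lower in every CBP-ifKO library. Crebbp reached 209, 156 and 208 CPM (counts scaled to library size with TMM factors) in Control and 109, 87.2 and 99.4 CPM in CBP-ifKO. Esr1, part of which lies in the creERT2 transgene, reached 5.65 to 6.29 CPM in Control against 63.6 to 69.4 CPM in CBP-ifKO. Arsi, which the driver transgene also carries, was at 0.769 ± 0.261 CPM in Control against 5.32 ± 0.895 CPM in CBP-ifKO (SD, n = 3), and Ep300, the paralogue of Crebbp, at 101 ± 17.5 and 114 ± 7.80 CPM, with overlapping groups. Total counts per library ran from 10199008 to 14950257. Markers of excitatory neurons, of CA1, CA3 and dentate granule cells and of glia were detected in both groups, and no gene of the 13 marker lists was at 0 in all libraries.

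Loss of CBP was accompanied by lower transcript levels of 3 of the 10 deacetylase genes, and all 3 belong to class IIa. Hdac5 fell to 70.7%, Hdac4 to 80.1% and Hdac9 to 80.6% of the Control mean, whereas the remaining class IIa gene, Hdac7, was at 91.1% with overlapping groups. No class I or class IIb gene passed the threshold, which was an adjusted p under 0.05 in the quasi-likelihood test of edgeR over all genes tested. Hdac2, Hdac3, Hdac8 and Hdac6 had levels between 112% and 114% of Control, and in each of them every CBP-ifKO library was above every Control library. The groups thus did not overlap in 7 of the 10 genes, 3 lower and 4 higher in CBP-ifKO. Over all genes tested, 6.39% were called, 4.99% as lower and 1.4% as higher, and the groups did not overlap in 25.6%, with 13.9% lower and 11.8% higher. At an unadjusted p under 0.05, 6 of the 10 genes passed, 3 of them (Hdac2, Hdac3 and Hdac6) as higher, against 21.2% and 8.23% of all genes. DESeq2 called the same 3 genes as edgeR, all lower, and 6.17% of the genes to which it gave an adjusted p. The median log2 fold change was 0.055 for the 10 genes and -0.0033 for all genes tested. In hippocampal tissue, fewer cells of a type and less RNA per cell cannot be told apart.

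**Figure D1:**
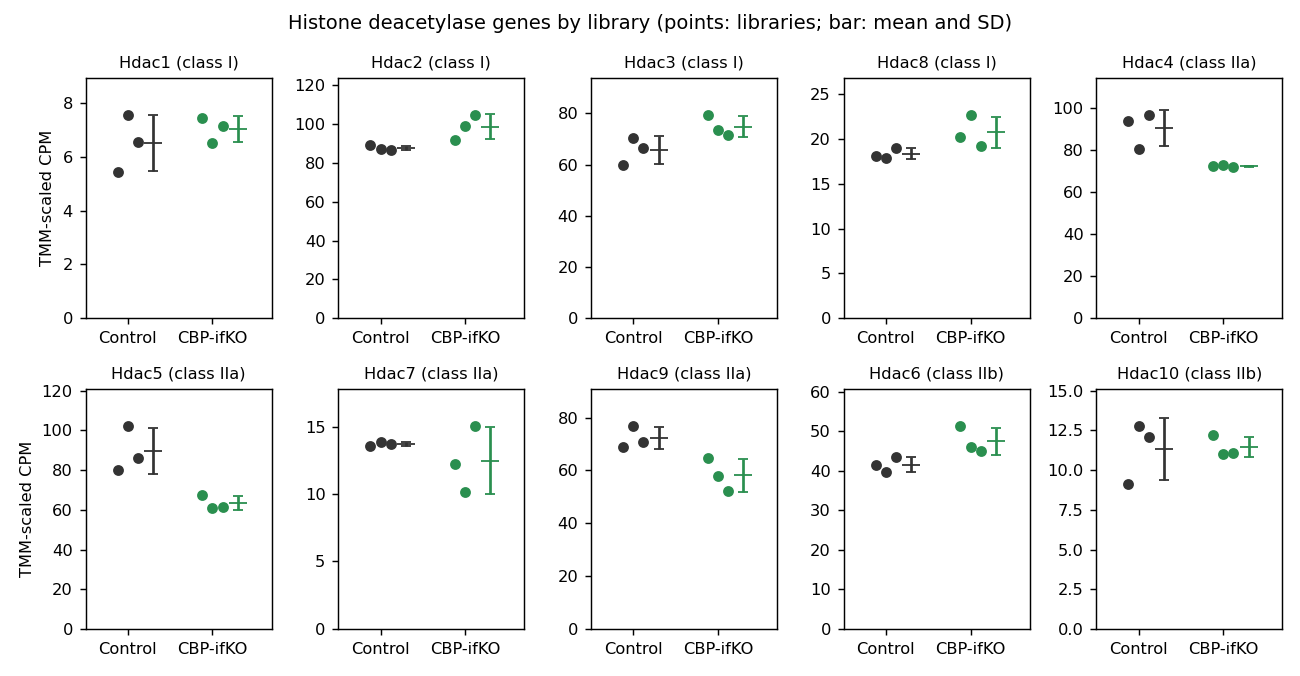
TMM-scaled CPM (vertical axis, from 0) of the 10 deacetylase genes in each of 3 Control (dark) and 3 CBP-ifKO (green) libraries, with the mean and SD beside the points. All CBP-ifKO points lie below the Control points for Hdac4, Hdac5 and Hdac9, and above them for Hdac2, Hdac3, Hdac8 and Hdac6.

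The stretches just before the annotated starts of the class IIa genes that fell are shown as a description. They are the 250 bases before a RefSeq start, in the build GRCm38.p6, read 5′ to 3′ on the minus strand, on which the 3 genes lie. Capitals mark matches, on either strand, to the GC box (GGGCGG), the cAMP response element (CRE, TGACGTCA) or its short form (TGACG), which a full CRE contains, the E-box (CACGTG), the AP-1 site (TGANTCA), the TATA box (TATAAA) or the MEF2 site. The Hdac4 stretch is at chr1:92180342-92180591, within an intron of longer Hdac4 transcripts, the Hdac5 stretch at chr11:102230173-102230422 and the Hdac9 stretch at chr12:34917096-34917345, the last 2 outside annotated genes.
Hdac4: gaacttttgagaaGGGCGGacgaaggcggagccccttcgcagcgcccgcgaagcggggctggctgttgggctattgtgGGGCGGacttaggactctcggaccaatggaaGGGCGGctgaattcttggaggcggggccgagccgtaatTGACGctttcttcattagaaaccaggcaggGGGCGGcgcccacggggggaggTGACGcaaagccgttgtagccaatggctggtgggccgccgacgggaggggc
Hdac5: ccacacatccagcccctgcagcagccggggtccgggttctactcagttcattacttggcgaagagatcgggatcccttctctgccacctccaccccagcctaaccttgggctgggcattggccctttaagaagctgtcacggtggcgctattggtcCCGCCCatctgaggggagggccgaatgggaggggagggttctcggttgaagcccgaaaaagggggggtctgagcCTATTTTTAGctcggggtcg
Hdac9: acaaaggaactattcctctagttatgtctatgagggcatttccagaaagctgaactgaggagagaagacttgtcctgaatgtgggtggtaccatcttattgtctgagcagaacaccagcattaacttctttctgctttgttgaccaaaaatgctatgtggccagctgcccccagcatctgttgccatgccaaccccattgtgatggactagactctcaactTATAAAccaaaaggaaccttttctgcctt
The 3 stretches differ in composition. Hdac4 has 65.2% G and C, 23 CG dinucleotides, 4 GC boxes and 2 short CRE forms, Hdac5 has 60.8%, 12 CG dinucleotides, 1 GC box and 1 MEF2 site, and Hdac9 has 44.4%, 0 CG dinucleotides and 1 TATA box. None of the 3 holds a full CRE. Over 32851 RefSeq promoter stretches of the same length, 32.7% hold a GC box, 17.8% a short CRE form, 1.55% a full CRE, 12.4% a TATA box, 6.75% an AP-1 site, 6.02% an E-box and 2.92% a MEF2 site. A second Hdac9 start, at chr12:34528890-34529139 within an intron, has 43.6% G and C and 1 AP-1 site. These are matches of letters and not measured binding, and the part of these stretches in the lower levels was not tested.

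Hdac5 changed most among the 10 genes. It encodes a class IIa deacetylase of neurons and muscle that leaves the nucleus after phosphorylation by calmodulin-dependent kinases (ENSMUSG00000008855, GRCm38 chromosome 11, 102194432 to 102230166, protein coding). Hdac5 reached 80.2, 102.4 and 86.3 CPM in the Control libraries and 67.3, 61.1 and 61.6 CPM in the CBP-ifKO libraries. The highest CBP-ifKO library was below the lowest Control library, and Control replicate 2 stood above the other two. The mean fell from 89.6 ± 11.5 to 63.3 ± 3.42 CPM (SD, n = 3), which is a log2 fold change of -0.50 (SE 0.084, 95% interval -0.68 to -0.33, edgeR adjusted p 0.00158). The call held in each of 17 alternative fits, including the Wald test of DESeq2 (adjusted p 4.03e-05). Of the exon bases of Hdac5, 1.26% belong also to Mir8101 on the same strand, which had 0 counts.

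The size of the Hdac5 change varied with a property of the libraries. The longest Hdac5 transcript has 59.8% G and C. Across genes, log2 CPM minus the mean of the gene over the 6 libraries was regressed on GC content. The slope per 10 percentage points was 0.144 in Control replicate 2 and between -0.026 and 0.039 in the other Control libraries. It ran from -0.117 to -0.016 in CBP-ifKO. Once the trend of each library with GC content and with length was taken out, the log2 fold change of Hdac5 was -0.29 (edgeR adjusted p 0.0172), and without Control replicate 2 it was -0.39 (0.0022). The direction and the call were kept in both.

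Hdac4, a class IIa deacetylase known for its part in synaptic plasticity and in memory (ENSMUSG00000026313, GRCm38 chromosome 1, 91928779 to 92195699), was the next gene called. Hdac4 reached 94.0, 80.6 and 96.8 CPM in Control against 72.4, 72.8 and 72.2 CPM in CBP-ifKO. The CBP-ifKO libraries were nearly equal and all below the lowest Control library, which was replicate 2. Counting noise at their 747, 1107 and 878 counts is larger than this spread, so the near equality does not measure precision. The mean went from 90.5 ± 8.62 to 72.5 ± 0.261 CPM (SD, n = 3, log2 difference -0.32, SE 0.073, 95% interval -0.47 to -0.16, edgeR adjusted p 0.0146). The call did not hold without Control replicate 1 (edgeR adjusted p 0.0511), Control replicate 3 (0.112), replicate 2 of CBP-ifKO (0.0603) or replicate 3 of CBP-ifKO (0.0801), with log2 fold changes from -0.39 to -0.27 over all 6 fits that left out 1 library. With GC and length trends removed, the log2 fold change of Hdac4 was -0.24 and the call was kept (edgeR adjusted p 0.0375). Gm26720, a lincRNA on the opposite strand, covers 22.4% of the Hdac4 exon bases, and since the counting was not stated to use strand, reads of both cannot be told apart there.

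Hdac9 encodes the class IIa deacetylase of which a short form without the catalytic domain, MITR, is known in muscle and brain (ENSMUSG00000004698, GRCm38 chromosome 12, 34047580 to 34917095). It reached 69.0, 77.0 and 70.6 CPM in Control against 64.7, 57.8 and 52.1 CPM in CBP-ifKO. All CBP-ifKO libraries were below the Control libraries, and the gap between the closest pair was smaller than for Hdac4 and Hdac5. The mean went from 72.2 ± 4.20 to 58.2 ± 6.33 CPM (SD, n = 3, log2 difference -0.31, SE 0.081, 95% interval -0.48 to -0.14, edgeR adjusted p 0.0277). The call was lost under library totals only, without TMM factors (-0.27, edgeR adjusted p 0.0577). It was also lost without Control replicate 2 (0.0663), Control replicate 3 (0.0864), replicate 2 of CBP-ifKO (0.118) or replicate 3 of CBP-ifKO (0.187), with the direction kept throughout. MITR and the full-length form are not separated by counts summed over all exons.

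Hdac7, best known from endothelial cells and developing T cells (ENSMUSG00000022475, GRCm38 chromosome 15, 97792664 to 97844502), was the least abundant class IIa gene. It reached 13.5, 13.8 and 13.7 CPM in Control against 12.2, 10.1 and 15.1 CPM in CBP-ifKO. The Control libraries were close together and lay inside the wider range of the CBP-ifKO libraries. The log2 fold change was -0.14 (SE 0.14, 95% interval -0.44 to 0.15, edgeR adjusted p 0.613), an interval that also holds the values of Hdac4 and Hdac9, so that a change of their size was not detectable at 126 to 183 counts per library. The sign turned with GC and length trends removed (0.072) and without CBP-ifKO replicate 2 (0.0083).

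None of the 4 class I genes passed the threshold. Hdac2, which represses genes of synaptic plasticity as part of several corepressor complexes (ENSMUSG00000019777, GRCm38 chromosome 10, 36974544 to 37001889), reached 89.1, 87.3 and 86.7 CPM in Control against 91.9, 99.2 and 104.7 CPM in CBP-ifKO. Its groups did not overlap, and the Control libraries differed little from each other. The means were 87.7 ± 1.25 and 98.6 ± 6.42 CPM (SD, n = 3), with a log2 fold change of 0.17 (SE 0.066, 95% interval 0.03 to 0.31, edgeR adjusted p 0.142).

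Hdac3, the catalytic subunit of the NCoR complex (ENSMUSG00000024454, GRCm38 chromosome 18, 37935844 to 37955016), reached 59.7, 70.5 and 66.4 CPM in Control against 79.4, 73.6 and 71.6 CPM in CBP-ifKO. Its groups did not overlap, but the closest libraries differed little. The log2 fold change was 0.19 (SE 0.074, 95% interval 0.03 to 0.35, edgeR adjusted p 0.149), and Hdac3 passed the threshold without Control replicate 2 (0.26, adjusted p 0.0443) and in none of the other 16 alternatives. Hdac8, an X-linked gene whose product deacetylates the cohesin subunit SMC3 (ENSMUSG00000067567, GRCm38 chromosome X, 102284639 to 102505359), reached 18.1, 17.9 and 19.0 CPM in Control against 20.3, 22.7 and 19.3 CPM in CBP-ifKO. The lowest CBP-ifKO library was just above the highest Control library (log2 fold change 0.18, SE 0.10, 95% interval -0.03 to 0.40, edgeR adjusted p 0.325).

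Hdac1, a close relative of Hdac2 that occupies the same complexes (ENSMUSG00000028800, GRCm38 chromosome 4, 129516104 to 129542713), had only 58 to 99 counts per library. It reached 5.45, 7.56 and 6.55 CPM in Control against 7.46, 6.51 and 7.16 CPM in CBP-ifKO, with overlapping groups (log2 fold change 0.10, SE 0.16, 95% interval -0.24 to 0.44, edgeR adjusted p 0.783). Its level is uncertain, because 35.5% of the 50-base stretches of its transcripts occur exactly in transcripts of other genes, 31.7% in the processed pseudogene Gm10093, and the reads, of 50 bases, were kept only above a mapping quality. The same share was 0% for Hdac2, Hdac3, Hdac8, Hdac7, Hdac9, Hdac6 and Hdac10, 0.642% for Hdac5 and 21.6% for Hdac4, in the last case all of it within Gm26720.

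Of the class IIb genes, Hdac6 encodes the cytoplasmic deacetylase of alpha-tubulin (ENSMUSG00000031161, GRCm38 chromosome X, 7930120 to 7947889). It reached 41.5, 39.8 and 43.5 CPM in Control against 51.5, 45.9 and 45.0 CPM in CBP-ifKO, with every CBP-ifKO library higher. The log2 fold change was 0.19 (SE 0.078, 95% interval 0.02 to 0.35, edgeR adjusted p 0.172), and it passed the threshold in 1 of 17 alternatives, the replicate block with GC and length trends removed (0.24, adjusted p 0.0278). Hdac10, whose product deacetylates polyamines (ENSMUSG00000062906, GRCm38 chromosome 15, 89123307 to 89128700), reached 9.11, 12.8 and 12.1 CPM in Control against 12.2, 11.0 and 11.1 CPM in CBP-ifKO. The groups overlapped (log2 fold change 0.01, SE 0.14, 95% interval -0.28 to 0.30, edgeR adjusted p 0.982), and at 97 to 168 counts per library the interval covers the values of most of the other members.

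**Figure D2:**
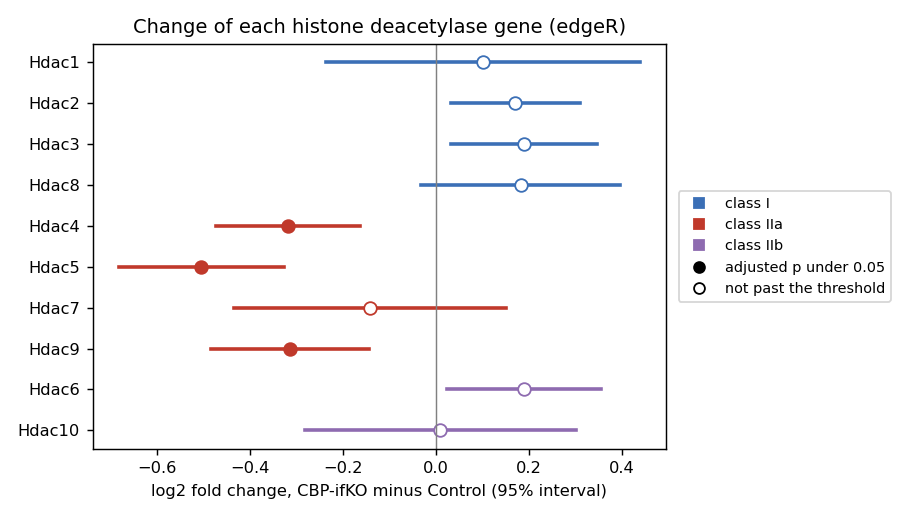
Log2 fold change of each gene, CBP-ifKO minus Control (horizontal axis), with its 95% interval from the edgeR fit and colors for the class. Filled points, Hdac4, Hdac5 and Hdac9, passed the adjusted p threshold, and open points did not.

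Within single libraries, some pairs of a called class IIa gene and a class I gene were compared as ratios. The log2 ratio of Hdac5 to Hdac3 in CPM was 0.43, 0.54 and 0.38 in the Control libraries and -0.24, -0.27 and -0.22 in the CBP-ifKO libraries. The log2 ratio of Hdac4 to Hdac2 was 0.077, -0.12 and 0.16 in Control and -0.34, -0.45 and -0.53 in CBP-ifKO, again without overlap. By contrast, the log2 ratio of Hdac5 to Hdac4, both class IIa, was -0.23, 0.34 and -0.17 in Control and -0.11, -0.25 and -0.23 in CBP-ifKO, with overlapping groups. Such ratios do not depend on how the libraries are scaled, but they keep the trend of each library with GC content. The longest transcripts of Hdac5, Hdac4, Hdac3 and Hdac2 have 59.8%, 52.5%, 47.1% and 41.9% G and C. Their log2 fold changes were -0.50, -0.32, 0.19 and 0.17 in the reported fit. With GC and length trends removed they were -0.29, -0.24, 0.17 and 0.12. The ratios were not tested, since the pairs were picked after the values were known.

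Levels were compared between genes as CPM per kilobase of merged exons. In Control, Hdac2 was highest at 19.6 ± 0.279, followed by Hdac3 (16.2 ± 1.35), Hdac5 (10.2 ± 1.31), Hdac6 (7.15 ± 0.325), Hdac4 (5.72 ± 0.545), Hdac9 (4.87 ± 0.283), Hdac8 (3.79 ± 0.128), Hdac10 (3.35 ± 0.580), Hdac7 (2.02 ± 0.023) and Hdac1 (1.89 ± 0.307, all SD, n = 3). The ranges of neighbours overlapped for Hdac4 and Hdac9, for Hdac8 and Hdac10 and for Hdac7 and Hdac1, and not for the other neighbours. In CBP-ifKO the order of Hdac5 and Hdac6 was exchanged, with Hdac5 at 7.21 ± 0.390 and Hdac6 at 8.16 ± 0.599 CPM per kilobase and ranges that did not overlap. The means of Hdac9 and Hdac8 (3.92 and 4.28) and of Hdac7 and Hdac1 (1.85 and 2.04) were also in the opposite order there, with overlapping ranges. The exchange of Hdac5 and Hdac6 depends on the length used. Per kilobase of the longest transcript, Hdac5 stayed above Hdac6 in CBP-ifKO (11.7 against 9.42), and Hdac6 ranked below Hdac4 and Hdac9 in Control.

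Added up per class, the 4 class IIa genes held 21.7, 24.0 and 22.7 CPM per kilobase in Control and 18.4, 16.9 and 17.3 in CBP-ifKO, without overlap. The 4 class I genes held 40.0, 42.8 and 41.6 in Control and 46.5, 46.9 and 47.1 in CBP-ifKO, also without overlap, and the class IIb pair 9.83 to 11.1 and 11.0 to 12.5, with overlap. Of the summed level of the 10 genes, class IIa made up 30.5% ± 0.435 in Control and 23.1% ± 0.623 in CBP-ifKO, and class I 55.4% ± 0.380 and 61.7% ± 1.38 (SD, n = 3). These shares describe transcripts, depend on the length used for each gene and include the uncertain level of Hdac1. The trends of the libraries with GC content were not taken out of them.

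**Figure D3:**
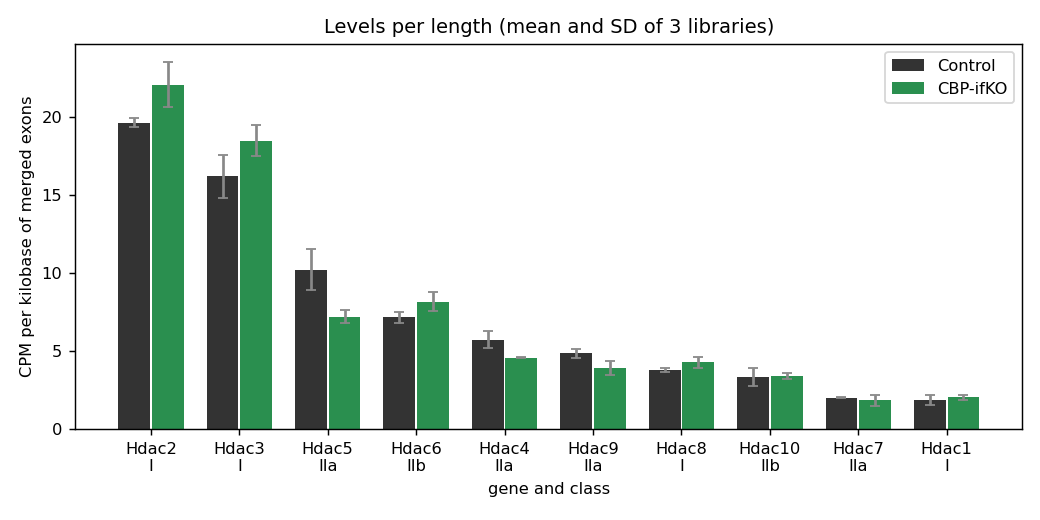
CPM per kilobase of merged exons (vertical axis, from 0) of the 10 genes ordered by their Control level, as mean and SD of 3 libraries for Control (dark) and CBP-ifKO (green). Hdac2 and Hdac3 are highest in both groups, and the means of 3 pairs, Hdac5 and Hdac6, Hdac9 and Hdac8, and Hdac7 and Hdac1, are in the opposite order in CBP-ifKO.

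The genes whose profile over the 6 libraries was closest to that of each called member were identified by the root-mean-square difference of log2 CPM after centring each gene on its mean, among 10095 genes with a mean of at least 10 CPM. For Hdac5 these were Sst (0.016), which encodes somatostatin, Ctxn1 (0.034) and Cnih2 (0.035), against a median of 0.29 over all candidates. For Hdac4 they were Fam171a1 (0.030), Slit2 (0.034) and Nrip1 (0.035), against 0.21, and for Hdac9 Arhgef10l (0.019), Ldb2 (0.032) and Ephb2 (0.040), against 0.21. The genes nearest to Hdac4 and Hdac5 were themselves called lower, whereas the 3 nearest to Hdac9 had edgeR adjusted p from 0.055 to 0.107. Because the profiles include the difference between the groups, genes this near share the direction of their member by the way they were picked.

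Genes that act with or against the deacetylases were described by 13 lists of 118 genes, of which 114 were tested. Of these, 11 were called lower and 1 higher, or 10.5% against 6.39% of all genes tested, and their median log2 fold change was -0.030. The 11 include Crebbp, the gene inactivated by design, and the lists were chosen with earlier results of these data known. The lists of the remaining deacetylases (class III, the sirtuins, and class IV), of the Sin3 and MiDAC complexes, of substrates of Hdac8 and Hdac10 with their counterparts, and of readers of acetylated lysine held no called gene (0 of 8, 12, 3, 6 and 11 tested, with medians of -0.041, -0.030, -0.16, 0.040 and 0.072). In these lists edgeR gave 9 of 40 genes an unadjusted p under 0.05, 3 of them lower, beside 21.2% of all genes tested, and DESeq2 called 0. Hdac11, the class IV deacetylase, was at 96.6 ± 5.93 CPM in Control against 82.6 ± 5.25 CPM in CBP-ifKO (SD, n = 3, log2 difference -0.23, edgeR adjusted p 0.0637), with groups that did not overlap. Gm44002, which had 0 counts, and Gm14573 cover 15.4% and 2.49% of its exon bases on the opposite strand. Sirt1, a deacetylase that uses NAD, was at 28.1 ± 2.37 and 34.2 ± 3.01 CPM (0.29, edgeR adjusted p 0.0804).

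Among the corepressors that carry class I enzymes, Tbl1xr1, a subunit of the NCoR complex, in which Hdac3 is the catalytic subunit, fell. It was at 218 ± 4.11 CPM in Control against 185 ± 2.74 CPM in CBP-ifKO (SD, n = 3, log2 difference -0.24, SE 0.055, edgeR adjusted p 0.0143). Ncor1, the scaffold that binds Hdac3, was at 460 ± 9.03 and 484 ± 7.01 CPM (0.072, edgeR adjusted p 0.473). Tbl1xr1 lost its call with library totals only and without Control replicate 3 or CBP-ifKO replicate 3.

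In the NuRD complex, 1 of 13 genes was called, beside 6.39% of all genes tested. It was the neuronal chromatin remodeler Chd5 (log2 fold change -0.30, edgeR adjusted p 0.00876), whose value was -0.15 with GC and length trends removed. It was not called there, nor without CBP-ifKO replicate 2 or 3. In the CoREST complex and its recruiting factor, 1 of 9 genes was called and it was higher, beside 1.4% of all genes called higher. Rest, the repressor of neuronal genes outside neurons, was at 14.4 ± 0.905 CPM in Control against 19.3 ± 1.32 CPM in CBP-ifKO (SD, n = 3; 0.42, SE 0.11, edgeR adjusted p 0.0273). DESeq2 did not call Rest, and it also missed the threshold in the fits lacking Control replicate 1 or 3 or replicate 2 or 3 of CBP-ifKO.

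On the class IIa side, 2 of 7 factors bound by these deacetylases fell, beside 4.99% of all genes tested called lower. Mef2d, a member of the MEF2 family, was at 85.9 ± 6.22 CPM in Control against 63.9 ± 6.38 CPM in CBP-ifKO (SD, n = 3, log2 difference -0.43, SE 0.080, edgeR adjusted p 0.00377), and it was called in each of 17 alternatives. An antisense gene, 1700113A16Rik, covers 8.87% of its exon bases. Camta2, a transcription activator that binds Hdac5, changed by -0.38 (edgeR adjusted p 0.0186), but was not called with GC and length trends removed (-0.21) nor without Control replicate 3 or CBP-ifKO replicate 2. Mef2c, the most studied MEF2 gene of the hippocampus, was at 206 ± 7.70 and 202 ± 10.4 CPM (-0.032, 95% interval -0.16 to 0.094, edgeR adjusted p 0.820).

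Of 16 kinases that phosphorylate class IIa deacetylases, 3 fell (Camk1g, Camk4 and Camk1d), beside 6.39% of all genes called. The other calmodulin-dependent kinases of the list, Camk1, Camk2a, Camk2b, Camk2d and Camk2g, were not called, with log2 fold changes of -0.0053, 0.092, -0.071, 0.20 and -0.10 (edgeR adjusted p 0.984, 0.516, 0.556, 0.0911 and 0.347). Camk1g had a log2 fold change of -0.95, Camk4 of -0.53 and Camk1d of -0.31 (edgeR adjusted p 3.30e-04, 3.45e-04 and 0.0146). Camk1g and Camk4 were called in all 17 alternatives, and Camk1d was lost without Control replicate 1 or 3 or replicate 2 or 3 of CBP-ifKO. Antisense bases make up 2.21% of the Camk4 exons. Of 6 tested 14-3-3 genes, which hold phosphorylated class IIa proteins in the cytoplasm, Ywhag fell (-0.22, edgeR adjusted p 0.0232), with its call lost under library totals only and without Control replicate 3 or CBP-ifKO replicate 2 or 3. Of 8 substrates and partners of Hdac6, the tubulin gene Tuba4a fell (-0.31, edgeR adjusted p 0.0155). Stk16, on the opposite strand, covers 37.3% of the exon bases of Tuba4a. The call of Tuba4a was lost without Control replicate 3 or CBP-ifKO replicate 2 or 3. Of 10 lysine acetyltransferase genes, Crebbp was the one called (-0.96, SE 0.10, edgeR adjusted p 3.63e-05), and Ep300 had 0.18 (adjusted p 0.321). The share called over all genes tested, 6.39%, also stands beside the single calls among the 14-3-3 genes, Hdac6 partners and acetyltransferases.

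**Figure D4:**
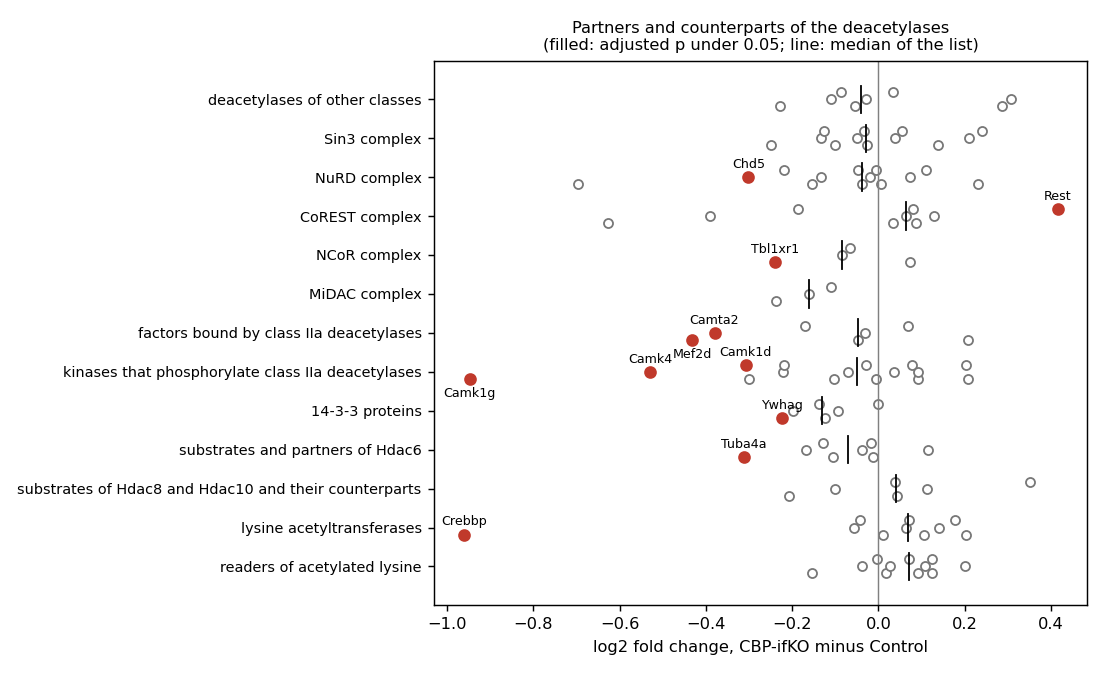
Log2 fold change (horizontal axis, CBP-ifKO minus Control) of the genes shown from the 13 lists of deacetylase partners and counterparts, with the median of a list as a line. The 11 filled and named points passed the adjusted p threshold, and Rest is the one above 0.

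Markers of some cell types were also lower in CBP-ifKO than in Control. All 4 CA1 markers (Fibcd1, Man1a, Pou3f1 and Wfs1) were called lower, and their summed level was 325 to 332 CPM in Control against 220 to 234 CPM in CBP-ifKO. Both markers of oligodendrocyte precursors, Pdgfra and Cspg4, were called lower (summed 101 to 111 and 77.3 to 80.0 CPM), as were 1 of 4 CA3 markers (47.3 to 55.7 and 39.5 to 44.1 CPM) and 2 of 6 interneuron markers, Sst and Slc32a1 (529 to 553 and 473 to 503 CPM). In dentate granule markers 1 of 4 was lower and 1 higher (249 to 278 and 265 to 298 CPM). Beside these counts, 4.99% of all genes tested were called lower and 1.4% higher. None of the excitatory neuron markers (0 of 4, 2459 to 2876 and 2596 to 2970 CPM), astrocyte (0 of 5, 1191 to 1247 and 1113 to 1212 CPM), oligodendrocyte (0 of 5, 2221 to 2630 and 2288 to 2502 CPM), microglia (0 of 5, 167 to 181 and 157 to 174 CPM) or endothelial markers (0 of 5, 126 to 132 and 99.1 to 139.8 CPM) was called by edgeR, and the same held for choroid plexus (0 of 2 tested, 38.1 to 51.8 and 29.8 to 51.6 CPM), thalamus (0 of 3, 105 to 119 and 116 to 123 CPM) and striatum (0 of 3 tested, 19.3 to 25.1 and 14.9 to 17.4 CPM). In these lists without a call, edgeR gave 9 of 32 genes an unadjusted p under 0.05, 7 of them lower, beside 21.2% of all genes tested, and DESeq2 called 0. The part of these markers in the changes of the deacetylase genes was not tested.

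**Figure D5:**
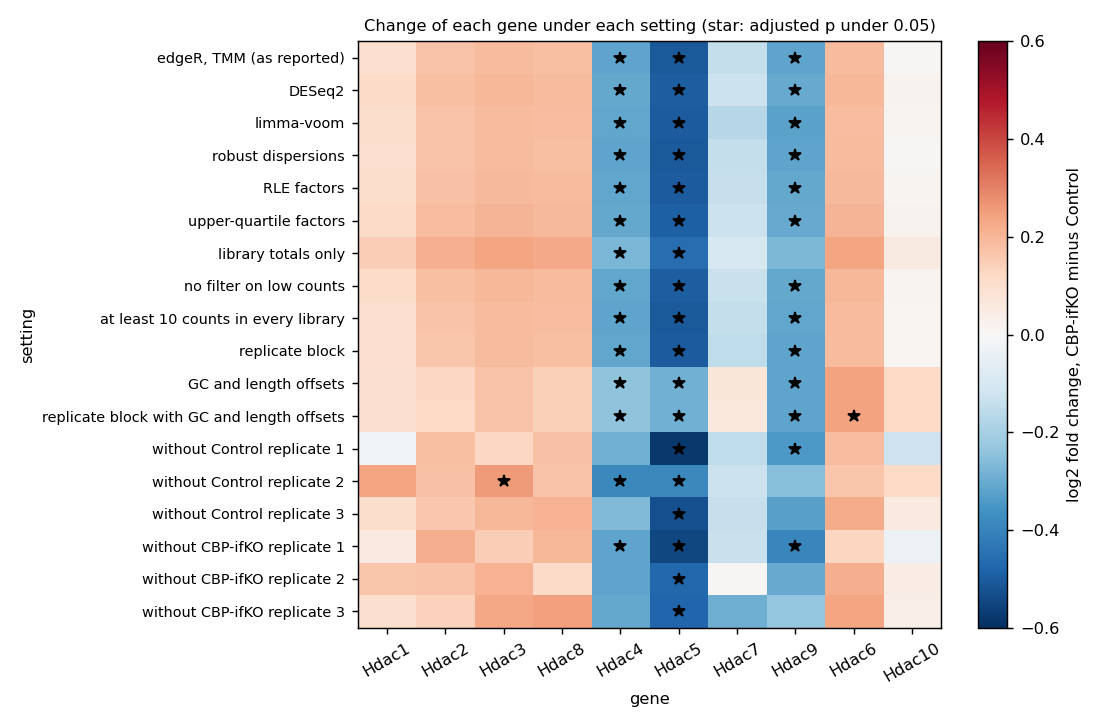
Log2 fold change of the 10 genes (columns) under each setting (rows) as color from -0.6 (blue) to 0.6 (red), with a star where the adjusted p was under 0.05. Hdac5 carries a star in every row, Hdac4 in all but 4 and Hdac9 in all but 5.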

How the data were processed

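RNA from the hippocampus was sequenced in 3 Control and 3 CBP-ifKO libraries, grouped by the sample titles. The authors trimmed adapters (Trim Galore 0.6.4), aligned single-end reads of 50 bp with STAR 2.6.1 to GRCm38, dropped reads of low mapping quality, counted over exons of Ensembl genes with Rsubread and deposited raw counts per gene, with no normalization. Depth, 10199008 to 14950257 counts per library, limits genes of few counts most.

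Gene symbols and positions were taken from GENCODE M21 (GRCm38), in which 55230 of 55471 identifiers (99.6%) were found, and promoters from RefSeq tables of GRCm38.p6, in which starts of 7 of the 10 genes were used; those of the 3 genes called are shown. Lengths are those deposited by the authors with the counts.

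Counts were tested with edgeR 4.0.16 (R 4.3.3), with TMM scaling, filterByExpr (minimum count 10, total 15), quasi-likelihood F-test and Benjamini-Hochberg adjustment over 17981 genes. The SE was derived from the log2 fold change and its F statistic. The p-values rest on the spread between 3 libraries per group, which may be pools or single animals. In the edgeR test the variance of each gene was moderated with information from all genes tested. The deacetylase genes, the lists and the rule for named genes were chosen with earlier results of these data known. The rule covered all 10 members, Crebbp, Ep300, Esr1, Arsi, Hdac11, Ncor1, Mef2c, Camk4, Sirt1, up to 4 called genes per list, and the 3 profiles nearest to each called member. A result under this rule that is not reported here is counted in the totals of the lists. Deviations of same-numbered libraries from their group means were hardly correlated (0.077, 0.037 and 0.0022), and the numbers were not taken as pairs. Alternatives were DESeq2 1.42.0, limma-voom (limma 3.58.1), robust dispersions, other scalings and filters, each library left out, a block for replicate number, and offsets for GC content and length (natural splines, 5 degrees of freedom).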

Additional observations from a re-analysis of the deposited data

How the results depend on the processing

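The number of deacetylase genes called was 3 in the reported fit, with 3 lower and 0 higher. It was 3 lower and 1 higher when the replicate block was joined to offsets for GC and length, and 2 lower with library totals only. In the 6 fits that each left out 1 replicate it ran from 1 to 3, with 1 to 3 lower and 0 to 1 higher; these fits have fewer samples. The lowest value, 1, came without Control replicate 3 and without replicate 2 or replicate 3 of CBP-ifKO, and Hdac5 was the gene left in each. Hdac2, Hdac3, Hdac8 and Hdac6 stayed above 0 in all 17 alternatives (0.12 to 0.22, 0.13 to 0.26, 0.11 to 0.24 and 0.13 to 0.24). Among genes not called, Hdac7 turned to higher with GC and length offsets (0.072), with these and the replicate block (0.065) and without CBP-ifKO replicate 2 (0.0083, range of -0.29 to 0.0083 with 1 replicate left out), Hdac1 to lower without Control replicate 1 (-0.014), and Hdac10 to lower without Control replicate 1 (-0.13) or CBP-ifKO replicate 1 (-0.035).

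The replicate block alone changed no call among the 10 genes and gave 1210 genes in all. With the GC and length offsets added, 1839 genes were called (717 higher, against 1149 and 252 in the reported fit) and 22 genes of the fixed lists, 9 of them higher. Higher calls over all genes were 514, beside 667 lower, with library totals only, where the median of all genes was 0.043 (897 lower in the reported fit), and 413 with no filter on low counts. Higher calls in the fixed lists were 0 with DESeq2, 2 with no filter or the replicate block, 3 with upper-quartile factors or GC and length offsets and 5 with library totals only. Leaving out 1 replicate gave 498 to 1326 genes called (76 to 342 higher, 416 to 984 lower) and 6 to 16 in the lists (0 to 2 higher, 6 to 14 lower). The cause was not tested. The alternative gene length was chosen after seeing the data.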
